A study of Mus musculus with 6 samples.

Results

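The 10 genes described here encode enzymes and carriers of the thioredoxin, peroxide, superoxide, glutathione and pentose phosphate systems, chosen by name from the deposited table of OT-I cells: Txn1, Txnrd1, Prdx1, Srxn1, Gclc, Gclm, Sod1, G6pdx, Tkt and Taldo1. All 10 were among the 25638 genes of the table, and each had 1 row. OT-I cells carry a transgenic receptor for a peptide of ovalbumin. Here they were CD8+ T cells of mice, and the labels call their genotype WT. In each group they were cultured with that peptide for 48 hours, and the groups differed in what was added: TANs, TAMos or vehicle, with 2 libraries each. TANs were sorted from the spleens of mice bearing LLC tumours, a transplanted Lewis lung carcinoma, by the surface markers CD11b+, Ly6G+ and Ly6C low. TAMos came from the same kind of spleen and were CD11b+, Ly6G- and Ly6C high. The T cells were purified again before their RNA was sequenced. The age of the mice and the ratio of cells in the culture were not stated, nor was it stated if replicates were cultured separately, so p-values rest on a spread that may be purely technical.

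These enzymes keep reducing power available to the cell. G6pdx and its partners in the pentose phosphate pathway turn glucose 6-phosphate into NADPH and ribose phosphate, and Tkt and Taldo1 shuttle carbon between that pathway and glycolysis. Txnrd1 spends NADPH to reduce thioredoxin, thioredoxin serves peroxiredoxins and ribonucleotide reductase, and Gclc with Gclm makes the precursor of glutathione. Several of these genes are known targets of the transcription factor NRF2, and activated T cells are known to raise both systems as they begin to divide.

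Expression was given as FPKM, the reads of a gene scaled to its length and to the counted reads of the library. The steps between low values corresponded to 44.7 to 45.0 M reads in the TAN libraries, 41.6 M in TAMo replicate 2 and 44.8 to 45.3 M in the vehicle libraries. In TAMo replicate 1 they corresponded to 21.9 M reads or to a multiple such as 43.9 M. A read in a gene of 2 kb was thus worth 0.0110 to 0.0228 FPKM. Mitochondrially encoded transcripts held 8.07% and 8.21% of summed FPKM in the TAN libraries, 1.20% and 1.32% in the TAMo libraries, and 8.15% and 8.34% in the vehicle libraries. All 7 T cell markers in the table were at 48.2 FPKM or more in every library, and their sum lay between 1263 and 1315 FPKM. Single markers differed with TAMo: Cd2 had 208 and 215 FPKM with TAN, 48.2 and 55.3 FPKM with TAMo, and 189 and 203 FPKM with vehicle. Cd8a too was lowest with TAMo, at 94.5 and 95.1 FPKM, whereas Cd3e, Cd3d, Cd3g and Lck were highest there. All 13 neutrophil markers stayed under 1 FPKM in every library, and 6 of them were listed at 0 throughout. Of 13 monocyte and macrophage markers, 10 stayed under 1 FPKM in every library. Without Ly6c2, which CD8+ T cells also express, that list summed to 3.12 and 2.07 FPKM in the TAN libraries, 7.19 and 10.98 FPKM in the TAMo libraries, and 3.29 and 2.62 FPKM in the vehicle libraries. Cd14 had 0.0850 and 0.0284 FPKM in the TAN libraries, 2.84 and 3.17 FPKM in the TAMo libraries, and 0.0852 and 0.0563 FPKM in the vehicle libraries. Cd68 had 2.65 and 1.82 FPKM with TAN, 3.63 and 7.05 FPKM with TAMo, and 2.95 and 2.35 FPKM with vehicle. The 4 dendritic cell markers summed to 2.21 and 2.81 FPKM with TAN, 7.35 and 6.86 FPKM with TAMo, and 3.24 and 2.81 FPKM with vehicle, most of it with TAMo from Zbtb46, at 5.90 and 5.09 FPKM. The myeloid genes Lyz2 and Csf1r were at most 0.182 and 0.0361 FPKM in any library. The part that other cells, or the mitochondrial share, had in the results was not tested. In bulk RNA, fewer cells of a type and less RNA per cell cannot be told apart.

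Co-culture with TAMos was marked by lower levels of most of these enzymes, but not of all. Tkt, Sod1, Prdx1 and Txn1 were 3.40 to 4.41-fold lower than with vehicle, Gclm was 2.77-fold lower, and G6pdx and Taldo1 were 1.47 to 1.48-fold lower. Txnrd1 was 1.13-fold higher, and Gclc and Srxn1 did not pass the test. Together the 10 transcripts held 0.0986% of all FPKM with TAMo and 0.243% with vehicle, and their sum was 539.7 ± 4.46 against 1531 ± 23.1 FPKM (SD, n = 2). With TAN the sum was 1583 ± 1.91 FPKM, and the largest difference of any member from vehicle was 1.14-fold.

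**Figure D1:**
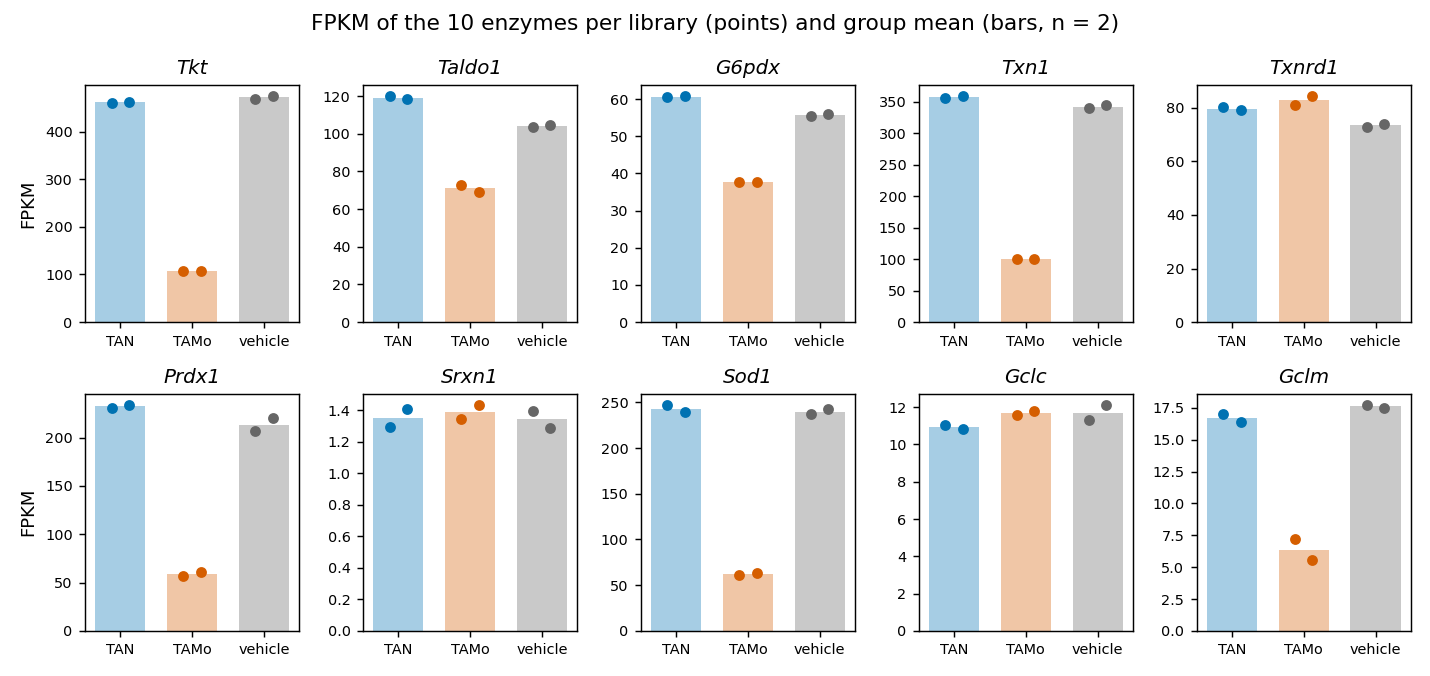
FPKM (linear axis from 0, scaled per gene) of the 10 enzymes in TAN, TAMo and vehicle libraries; points are single libraries and bars are group means of 2. Tkt stands at 106 and 107 FPKM in the TAMo libraries and at 469 and 474 FPKM in the vehicle libraries, whereas Gclc lies between 10.8 and 12.1 FPKM in all 6 libraries.

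Tests were made with limma on log2(FPKM + 1) over the 10727 genes that reached 1 FPKM in at least 2 libraries, and p-values were adjusted over all of these genes. All 10 members were among them. Folds are ratios of group means of FPKM, and log2 changes are given with their standard error. Of the 10 members, 7 fell and 1 rose with TAMo against vehicle. In that comparison 86.5% of all tested genes passed in either direction and 40.7% fell, so that 8 of 10 passing is near this share. The median log2 change was -0.95 over the members and 0.057 over all genes tested. A fall of 1 or more on the log2 scale was seen for 5 members and for 14.4% of tested genes. Rises took in 45.7% of tested genes. The TAMo and vehicle libraries did not overlap for 8 members, against 92.7% of tested genes.

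Among the pentose phosphate enzymes, Tkt is transketolase, which moves carbon units between sugar phosphates (GRCm38, chr14:30548359-30574720). It had 459 and 463 FPKM with TAN, 106 and 107 FPKM with TAMo, and 469 and 474 FPKM with vehicle. The TAMo libraries lay far below the other 4, and the TAN libraries just under the vehicle ones. Tkt was the most abundant of the 10 on the per-length scale in every library, and its fall with TAMo was the largest of the 10, at -2.13 ± 0.024 on the log2 scale (limma adjusted p = 6.89e-10). By the sorted log2 change of all tested genes it stood at the 3.96th percentile. With TAN its log2 change of -0.032 ± 0.024 did not pass (adjusted p = 0.389).

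Taldo1 encodes transaldolase, the companion of transketolase (chr7:141392199-141402968). It had 119.9 and 118 FPKM with TAN, 72.6 and 69.3 FPKM with TAMo, and 103 and 105 FPKM with vehicle, so that the 3 groups did not overlap. It fell with TAMo by 0.55 ± 0.032 on the log2 scale (limma adjusted p = 1.66e-06), much less than Tkt. G6pdx encodes glucose-6-phosphate dehydrogenase, which opens the oxidative branch and makes NADPH (chrX:74409483-74429194). It had 60.5 and 60.8 FPKM with TAN, 37.6 and 37.7 FPKM with TAMo, and 55.3 and 56.1 FPKM with vehicle. Its fall with TAMo, -0.55 ± 0.029, was close to that of Taldo1 (limma adjusted p = 1.02e-06). G6pdx shares 418 exonic bases with Ikbkg on the opposite strand, and whether counting used strand is not known. Ikbkg itself had 12.3 and 12.6 FPKM with TAN, 29.3 and 29.0 FPKM with TAMo, and 11.2 and 10.8 FPKM with vehicle. G6pd2, an intronless copy of G6pdx, was at most 0.00951 FPKM in any library.

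In the thioredoxin system, Txn1 encodes cytosolic thioredoxin, the small protein that passes electrons to its clients (chr4:57943373-57956411). It had 356 and 359 FPKM with TAN, 100.7 and 100.5 FPKM with TAMo, and 339.8 and 344 FPKM with vehicle. The TAMo libraries lay well below all others, and Txn1 fell by 1.76 ± 0.024 on the log2 scale (limma adjusted p = 1.36e-09). Txnrd1 encodes the selenoprotein that reduces thioredoxin with NADPH (chr10:82833951-82897712). It had 80.4 and 79.1 FPKM with TAN, 81.2 and 84.3 FPKM with TAMo, and 73.0 and 73.8 FPKM with vehicle. Both co-cultures lay above vehicle without overlap, and the rise with TAMo was 0.17 ± 0.031 (limma adjusted p = 0.00123). The transcripts of the enzyme and its substrate thus had changes of opposite sign with TAMo, that of Txnrd1 being small. By the sorted log2 change of all tested genes, Txnrd1 stood at percentile 54.8 and Txn1 at percentile 5.62. The FPKM of Txnrd1 was 22.6% and 22.0% of that of Txn1 with TAN, 80.6% and 83.9% with TAMo, and 21.5% and 21.4% with vehicle.

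Prdx1 encodes an abundant peroxiredoxin, a thiol enzyme that removes hydrogen peroxide (chr4:116685544-116700822). It had 231 and 234 FPKM with TAN, 56.6 and 61.4 FPKM with TAMo, and 206 and 220.3 FPKM with vehicle. The TAMo libraries were low, and Prdx1 fell by 1.84 ± 0.047 on the log2 scale (limma adjusted p = 1.97e-08). Srxn1, sulfiredoxin, repairs overoxidised peroxiredoxins (chr2:152105516-152111376). It was the least abundant member, with 1.29 and 1.41 FPKM with TAN, 1.35 and 1.43 FPKM with TAMo, and 1.40 and 1.29 FPKM with vehicle, and the 3 groups overlapped. Its log2 change was 0.029 with TAMo (95% interval -0.16 to 0.22) and 0.0031 with TAN (-0.19 to 0.20), and neither passed (limma adjusted p = 0.75 and 0.983). These intervals run on the log2(FPKM + 1) scale, which understates the change of a gene near 1 FPKM. Per length, Srxn1 reached 0.559% and 0.601% of Prdx1 with TAN, 2.38% and 2.34% with TAMo, and 0.677% and 0.585% with vehicle.

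Sod1 encodes the copper-zinc dismutase that turns superoxide into hydrogen peroxide (chr16:90220754-90226329). It had 247 and 239 FPKM with TAN, 61.2 and 63.7 FPKM with TAMo, and 237 and 243 FPKM with vehicle. TAN and vehicle libraries overlapped, and the TAMo libraries lay below both. Sod1 was 3.84-fold lower with TAMo than with vehicle, a fall of 1.93 ± 0.032 on the log2 scale (limma adjusted p = 2.77e-09).

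Gclc and Gclm encode the catalytic and the modifier subunit of glutamate-cysteine ligase, the rate-limiting enzyme of glutathione synthesis. Gclc (chr9:77754535-77794485) had 11.1 and 10.8 FPKM with TAN, 11.6 and 11.8 FPKM with TAMo, and 11.3 and 12.1 FPKM with vehicle. TAMo and vehicle libraries overlapped, and the log2 change was -0.0021 with a 95% interval of -0.13 to 0.13 (limma adjusted p = 0.972). Gclm (chr3:122245557-122270732) had 17.0 and 16.4 FPKM with TAN, 7.19 and 5.53 FPKM with TAMo, and 17.7 and 17.5 FPKM with vehicle. The TAMo libraries were the lowest here too, and Gclm fell by 1.35 ± 0.099 on the log2 scale (limma adjusted p = 6.56e-06). The FPKM ratio of Gclm to Gclc was 1.53 ± 0.0198 with TAN, 0.546 ± 0.109 with TAMo and 1.51 ± 0.0898 with vehicle (SD, n = 2), and so was lowest with TAMo. Which of these transcripts was the more abundant depends on the gene lengths used for FPKM, which were not stated. Gclm shares 296 exonic bases with Gm17494 on the opposite strand and 244 with the pseudogene Gm6061, neither of which was analysed here.

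**Figure D2:**
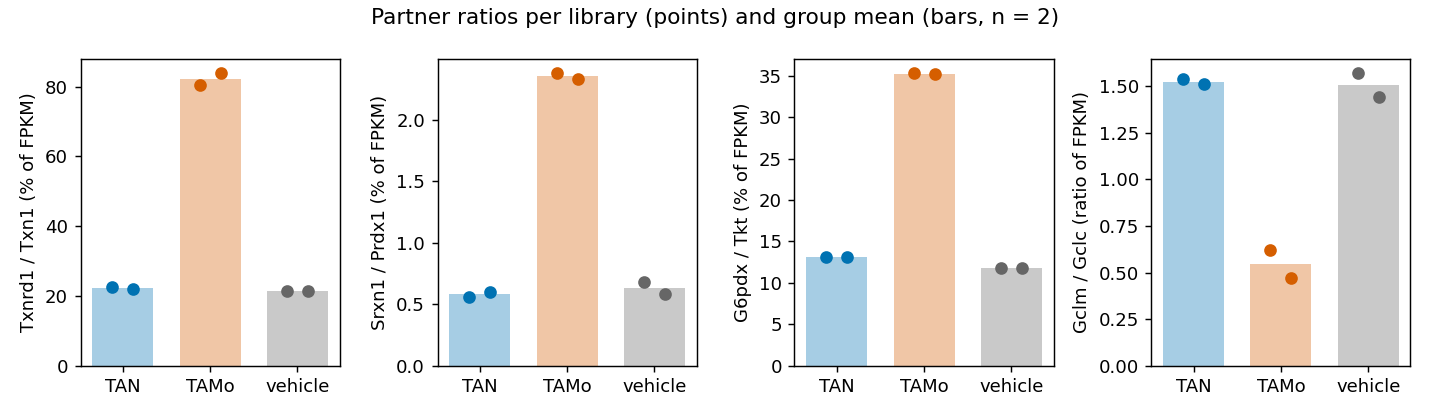
Ratio of the FPKM of 2 partner enzymes within a library, in percent for Txnrd1 over Txn1, Srxn1 over Prdx1 and G6pdx over Tkt, and as a plain ratio for Gclm over Gclc; points are libraries and bars are means of 2, in the order TAN, TAMo and vehicle. With TAMo, Txnrd1 reached 80.6% and 83.9% of Txn1 and G6pdx 35.3% and 35.2% of Tkt, while the ratio of Gclm to Gclc lay at 0.622 and 0.469.

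The falls differed in size between partners. G6pdx reached 13.2% and 13.1% of Tkt with TAN, 35.3% and 35.2% with TAMo, and 11.8% and 11.8% with vehicle. The ratios are given as descriptions and were not tested. The calls of all 8 members that passed with TAMo held in every alternative that was run, including those without either TAMo library. When each library was rescaled to the same sum of FPKM, the median of all genes moved to 0.25, and Gclc then passed at 0.19 (limma adjusted p = 0.0138), although it lay 0.059 below that median. Relative to the median of all genes, Txnrd1 was 0.11 higher in FPKM as deposited, 0.12 higher with that rescaling and 0.11 higher with median-ratio scaling.

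**Figure D3:**
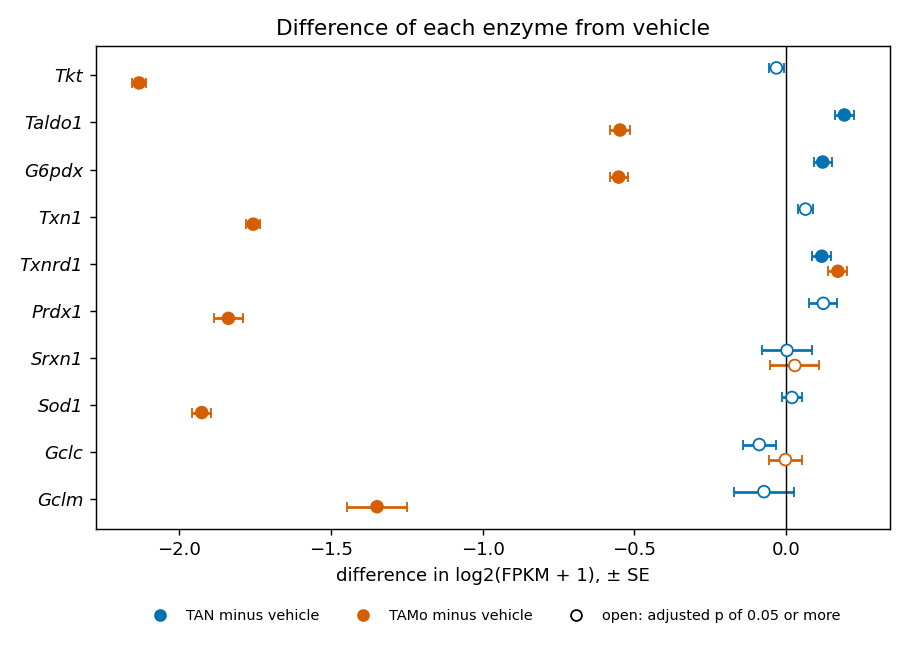
Difference from vehicle in log2(FPKM + 1) for each of the 10 enzymes, with its standard error, for TAN (upper point of each pair) and TAMo (lower point); filled points had an adjusted p under 0.05. Tkt lies at -2.13 and Txnrd1 at 0.17 for TAMo, while all TAN points lie between -0.088 and 0.19.

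With TAN, 3 of the 10 members rose against vehicle, by small amounts. In limma none fell, at an adjusted or an unadjusted p under 0.05. In this comparison 20.3% of tested genes passed, 9.37% as rises and 11% as falls. The risers were Taldo1, at 0.19 ± 0.032 on the log2 scale (limma adjusted p = 0.00823), G6pdx, at 0.12 ± 0.029 (adjusted p = 0.03), and Txnrd1, at 0.12 ± 0.031 (adjusted p = 0.0386). In FPKM these were 1.14-fold, 1.09-fold and 1.09-fold. The libraries of TAN and vehicle did not overlap for 8 of the 10 members, against 64.1% of tested genes. These calls needed nearly all libraries. That of Taldo1 held only when vehicle replicate 2 was the vehicle or TAN library left out, and the other 3 gave an adjusted p of 0.0639 (vehicle replicate 1), 0.0623 (TAN replicate 1) and 0.051 (TAN replicate 2), and those of G6pdx and Txnrd1 missed the threshold when any of these 4 libraries was left out (up to 0.141 and 0.172). G6pdx and Txnrd1 gave 0.0753 and 0.102 when the variance trend was dropped, and Txnrd1 gave 0.0645 when low values were kept. Prdx1 had a log2 change of 0.12 and Txn1 of 0.064, and neither passed (adjusted p = 0.109 and 0.104). Prdx1 did pass when TAMo libraries stayed out of the fit (0.0395), with the replicate number as a block (0.0418), and without TAMo replicate 1 or 2 (0.041 and 0.0411). The other 5 members had log2 changes between -0.088 (Gclc) and 0.019 (Sod1), with adjusted p of 0.298 or more.

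Set directly against each other, TAN exceeded TAMo for 7 members, the 7 that fell with TAMo against vehicle, and in limma no member was lower with TAN at an adjusted or an unadjusted p under 0.05. Here 86.6% of tested genes passed, 40.6% as higher and 46% as lower with TAN. The libraries did not overlap for 9 members and for 93% of tested genes. Both co-cultures are compared with the same vehicle libraries, so the first 2 comparisons are not independent. Log2 differences of TAN minus TAMo ran from 0.67 for G6pdx to 2.10 for Tkt among those 7 (limma adjusted p of 9.27e-06 or less). Txnrd1, Srxn1 and Gclc did not pass, with differences of -0.053 (95% interval -0.13 to 0.020), -0.026 (-0.22 to 0.17) and -0.086 (-0.21 to 0.042). With libraries rescaled to one sum, Txnrd1 and Gclc passed as lower with TAN, at -0.25 and -0.28 (limma adjusted p = 0.000125 and 0.00219).

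Members that moved unalike with TAMo shared a stretch of letters near their start sites. NRF2 binds the antioxidant response element, whose core is TGACNNNGC, and these letters were searched on both strands in windows from 250 bases before to 50 bases after the RefSeq start (GRCm38.p6). Windows existed for 9 members, with 3 for Txnrd1, and Gclc is named only. The letters occurred in 6 of these 9 genes, in 17.2% of the 8358 tested genes with a window, and in 12.4% of all 32851 windows. The 9 genes were picked as members of redox pathways, so this count is a description. The matches are shown with 10 bases on either side, the match in capitals, on the strand that reads TGACNNNGC, which in all 6 is opposite to the gene:
Prdx1: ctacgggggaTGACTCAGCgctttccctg
Gclm: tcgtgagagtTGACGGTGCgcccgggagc
Sod1: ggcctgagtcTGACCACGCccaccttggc
G6pdx: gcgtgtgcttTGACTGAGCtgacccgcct
Txnrd1: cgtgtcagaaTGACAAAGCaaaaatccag
Srxn1: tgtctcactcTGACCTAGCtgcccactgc

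The first 4 of these genes fell with TAMo, Txnrd1 rose and Srxn1 did not pass, while Tkt, Txn1 and Taldo1, which had no match in the window, also fell. The match began 133 bases before the start in Prdx1 (chr4:116685466-116685474), 134 in Gclm (chr3:122245423-122245431), 56 in Sod1 (chr16:90220706-90220714) and 57 in G6pdx (chrX:74428929-74428937). In Txnrd1 it began 92 bases before the middle one of its 3 starts (chr10:82859114-82859122), and in Srxn1 28 bases after the start (chr2:152105552-152105560). That of Prdx1 also holds TGANTCA, the letters bound by AP-1, which occurred in 2 of the 9 members and in 5.66% of tested genes with a window. A match of letters is not a bound site. Prdx1, which fell, and Txnrd1, which rose, are given with the 250 bases before the start, 5′ to 3′ on the strand of the gene and with the match in capitals (chr4:116685349-116685598 and chr10:82858956-82859205, both on the plus strand):
Prdx1: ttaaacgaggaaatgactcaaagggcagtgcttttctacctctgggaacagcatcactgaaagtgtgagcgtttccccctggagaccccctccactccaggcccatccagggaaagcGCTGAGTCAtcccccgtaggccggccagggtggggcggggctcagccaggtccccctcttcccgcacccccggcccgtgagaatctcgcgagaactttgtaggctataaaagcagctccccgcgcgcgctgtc
Txnrd1: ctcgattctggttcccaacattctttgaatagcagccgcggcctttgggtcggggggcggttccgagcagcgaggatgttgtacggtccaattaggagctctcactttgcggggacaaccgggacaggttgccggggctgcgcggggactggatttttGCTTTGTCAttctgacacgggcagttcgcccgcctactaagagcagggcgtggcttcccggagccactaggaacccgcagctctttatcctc

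Of 8 regulators of NRF2, 4 rose and 2 fell with TAMo, which for so few genes is near the 86.5% of all tested genes that passed. With TAN 20.3% of all tested genes passed. Nfe2l2, the gene of NRF2, had 13.96 and 15.8 FPKM with TAN, 9.33 and 9.76 FPKM with TAMo, and 17.3 and 16.9 FPKM with vehicle, a fall with TAMo of 0.78 ± 0.066 on the log2 scale (limma adjusted p = 1.45e-05). Bach2, a repressor of the same family that shares its small MAF partners, had 8.93 and 9.64 FPKM with TAN, 84.3 and 82.4 FPKM with TAMo, and 10.8 and 10.9 FPKM with vehicle. Bach2 was thus 7.69-fold higher with TAMo than with vehicle (adjusted p = 2.92e-09). Sqstm1, an autophagy receptor that binds the NRF2 inhibitor KEAP1, and Mafk, a small MAF partner, rose by 0.87 and 0.75. Keap1, one of the 2 that fell, at -0.25, did not pass with libraries rescaled to one sum (adjusted p = 0.278). With TAN none of the 8 rose in limma, at an adjusted or an unadjusted p under 0.05, and 3 fell: Maff by 0.34, Bach2 by 0.20 and Sqstm1 by 0.19. Each of these 3 calls was lost on leaving out vehicle replicate 1 or 2, and also on leaving out TAN replicate 2 for Maff and TAN replicate 1 for the others (adjusted p up to 0.117).

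Other NRF2 targets did not share a direction with TAMo. Of 14 listed, 9 were tested, of which 2 rose and 5 fell, with a median log2 change of -0.21. Of all tested genes 45.7% rose and 40.7% fell with TAMo, and 20.3% passed with TAN. Blvrb changed most with TAMo, a fall of 1.52 from a low mean of 3.03 FPKM with vehicle (limma adjusted p = 0.000208). In FPKM it was 7.63-fold lower, at a mean of 0.396 with TAMo, where the log2(FPKM + 1) scale understates the change. Gstm1, a glutathione transferase, rose by 0.63, while Gsr, which reduces oxidised glutathione, fell by 0.62 and Hmox1, heme oxygenase, by 0.51. Ugdh, which makes UDP-glucuronate, fell by 0.30 and did not pass with libraries rescaled to one sum (adjusted p = 0.16). Nqo1, Slc7a11 and Me1, often used as readouts of NRF2, stayed under 1 FPKM in every library and were not tested. With TAN 2 of the 9 rose, and no log2 change was below 0. Gstm1 rose by 0.69 ± 0.078 (limma adjusted p = 0.00202) and Gsto1, another glutathione transferase, by 0.21, a call that needed both vehicle libraries and TAN replicate 2 (adjusted p up to 0.089 without them).

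Of 24 tested genes of other thiol and peroxide enzymes, 12 rose and 10 fell with TAMo, with a median of 0.195. The shares over all tested genes were 45.7% and 40.7%, and 20.3% passed with TAN. Txnip, which encodes an inhibitor of thioredoxin, had 20.9 and 21.1 FPKM with TAN, 127 and 126 FPKM with TAMo, and 28.7 and 30.0 FPKM with vehicle. It was 4.31-fold higher with TAMo (limma adjusted p = 2.88e-09) and lower with TAN, by 0.46 ± 0.034 on the log2 scale (adjusted p = 0.000506). The inhibitor therefore moved opposite to Txn1 with TAMo. Sesn3, a stress-induced sestrin, had 15.8 and 14.6 FPKM with TAN, 188 and 182 FPKM with TAMo, and 14.3 and 12.9 FPKM with vehicle, and its sister gene Sesn2 was 5.34-fold higher with TAMo. Prdx4, the peroxiredoxin of the endoplasmic reticulum, had 39.5 and 42.2 FPKM with TAN, 3.74 and 3.59 FPKM with TAMo, and 33.9 and 33.0 FPKM with vehicle, the deepest fall of this list at -2.89 ± 0.050. The peroxiredoxin genes split with TAMo: besides Prdx1 and Prdx4, Prdx3 of the mitochondria fell by 0.71 and Prdx2 by 0.24, whereas Prdx5 and Prdx6 rose by 0.91 and 0.54. Prdx2 did not pass with libraries rescaled to one sum (adjusted p = 0.313). Sod2, the mitochondrial dismutase, fell by 0.88, less than Sod1. With TAN 4 of the 24 rose and 2 fell, led by Txnip and then by Prdx4 (0.28), Sesn2 (-0.26) and Park7 (0.26), a protein that protects against oxidation. The call of Prdx4 needed both vehicle libraries and TAN replicate 2 (adjusted p up to 0.0803), and that of Sesn2 needed both TAN libraries and vehicle replicate 1 (up to 0.122).

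Among other glutathione genes, 2 of 12 tested rose and 6 fell with TAMo, with a median of -0.29. Over all tested genes 45.7% rose and 40.7% fell with TAMo, and 20.3% passed with TAN. Gss, glutathione synthetase, which completes the product of Gclc and Gclm, had 18.1 and 16.8 FPKM with TAN, 44.2 and 45.3 FPKM with TAMo, and 17.7 and 16.7 FPKM with vehicle, and rose by 1.33 ± 0.050 (limma adjusted p = 1.54e-07). Chac1, which degrades glutathione, had 6.75 and 8.20 FPKM with TAN, 0.195 and 0.337 FPKM with TAMo, and 9.29 and 8.87 FPKM with vehicle. Its fall with TAMo was 2.99 on the log2(FPKM + 1) scale (limma adjusted p = 8.92e-08) and 34.1-fold in FPKM, a ratio that rests on low TAMo values. The transferase genes Gstp1 and Gstt2 fell with TAMo by 1.96 and 1.51 on the log2 scale. Gstp1 has close copies in the genome, so its reads may be shared with them. The transcripts of the modifier subunit, the synthetase and the degrading enzyme therefore did not move together. With TAN, Glo1, the glyoxalase, alone of the 12 passed, at 0.19, a call that needed all 4 TAN and vehicle libraries (adjusted p up to 0.102).

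Of 17 tested genes of other pentose phosphate and NADPH reactions, 6 rose and 9 fell with TAMo, with a median of -0.47. Among all tested genes 45.7% rose and 40.7% fell with TAMo, and 20.3% passed with TAN. The oxidative branch fell beyond G6pdx: Pgd, the second NADPH-producing dehydrogenase, had 132 and 132 FPKM with TAN, 71.9 and 72.6 FPKM with TAMo, and 140.8 and 140.6 FPKM with vehicle, a fall with TAMo of 0.95 ± 0.025 (limma adjusted p = 2.43e-08). Pgls, the lactonase between them, fell by 0.47. In the non-oxidative branch Rpia, the ribose isomerase, fell by 0.74 and Rpe, the epimerase, rose by 0.99. Outside the pathway, Mthfd2, a mitochondrial folate dehydrogenase, was 4.15-fold lower and Idh2 and Idh1, isocitrate dehydrogenases that make NADPH, were 3.59 and 3.12-fold lower, whereas Nnt, the mitochondrial transhydrogenase, was 2.46-fold higher. With TAN 5 rose and 1 fell. Idh1 had 10.8 and 10.1 FPKM with TAN, 2.09 and 2.36 FPKM with TAMo, and 7.17 and 6.69 FPKM with vehicle, so that it rose with TAN by 0.53 ± 0.074 (limma adjusted p = 0.0047). Prps2, Nnt, Tigar and Me2 rose by 0.24, 0.23, 0.22 and 0.16 and Pgd fell by 0.092. The call of Prps2 needed both TAN libraries and vehicle replicate 1 (adjusted p up to 0.0746), and those of Nnt, Tigar, Me2 and Pgd needed all 4 TAN and vehicle libraries (up to 0.196). Pgd also missed it under each rescaling.

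The NADPH oxidase of phagocytes was set beside these genes because it would be carried by myeloid cells. Its catalytic gene Cybb was under 1 FPKM in 5 of 6 libraries and so was not tested. Rac2 and Cyba, which T cells also express, rose with TAMo by 0.75 and 0.49 on the log2 scale, and Ncf1 fell by 0.39 (limma adjusted p of 3.13e-05 or less). Ncf4 rose by 0.18, which did not pass with median-ratio scaling or without vehicle replicate 1 or TAMo replicate 2 (adjusted p up to 0.0796). With TAN Ncf1 rose by 0.50 ± 0.038 (adjusted p = 0.000546), as did Rac2 by 0.22, a call that needed all 4 TAN and vehicle libraries (up to 0.0825).

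**Figure D4:**
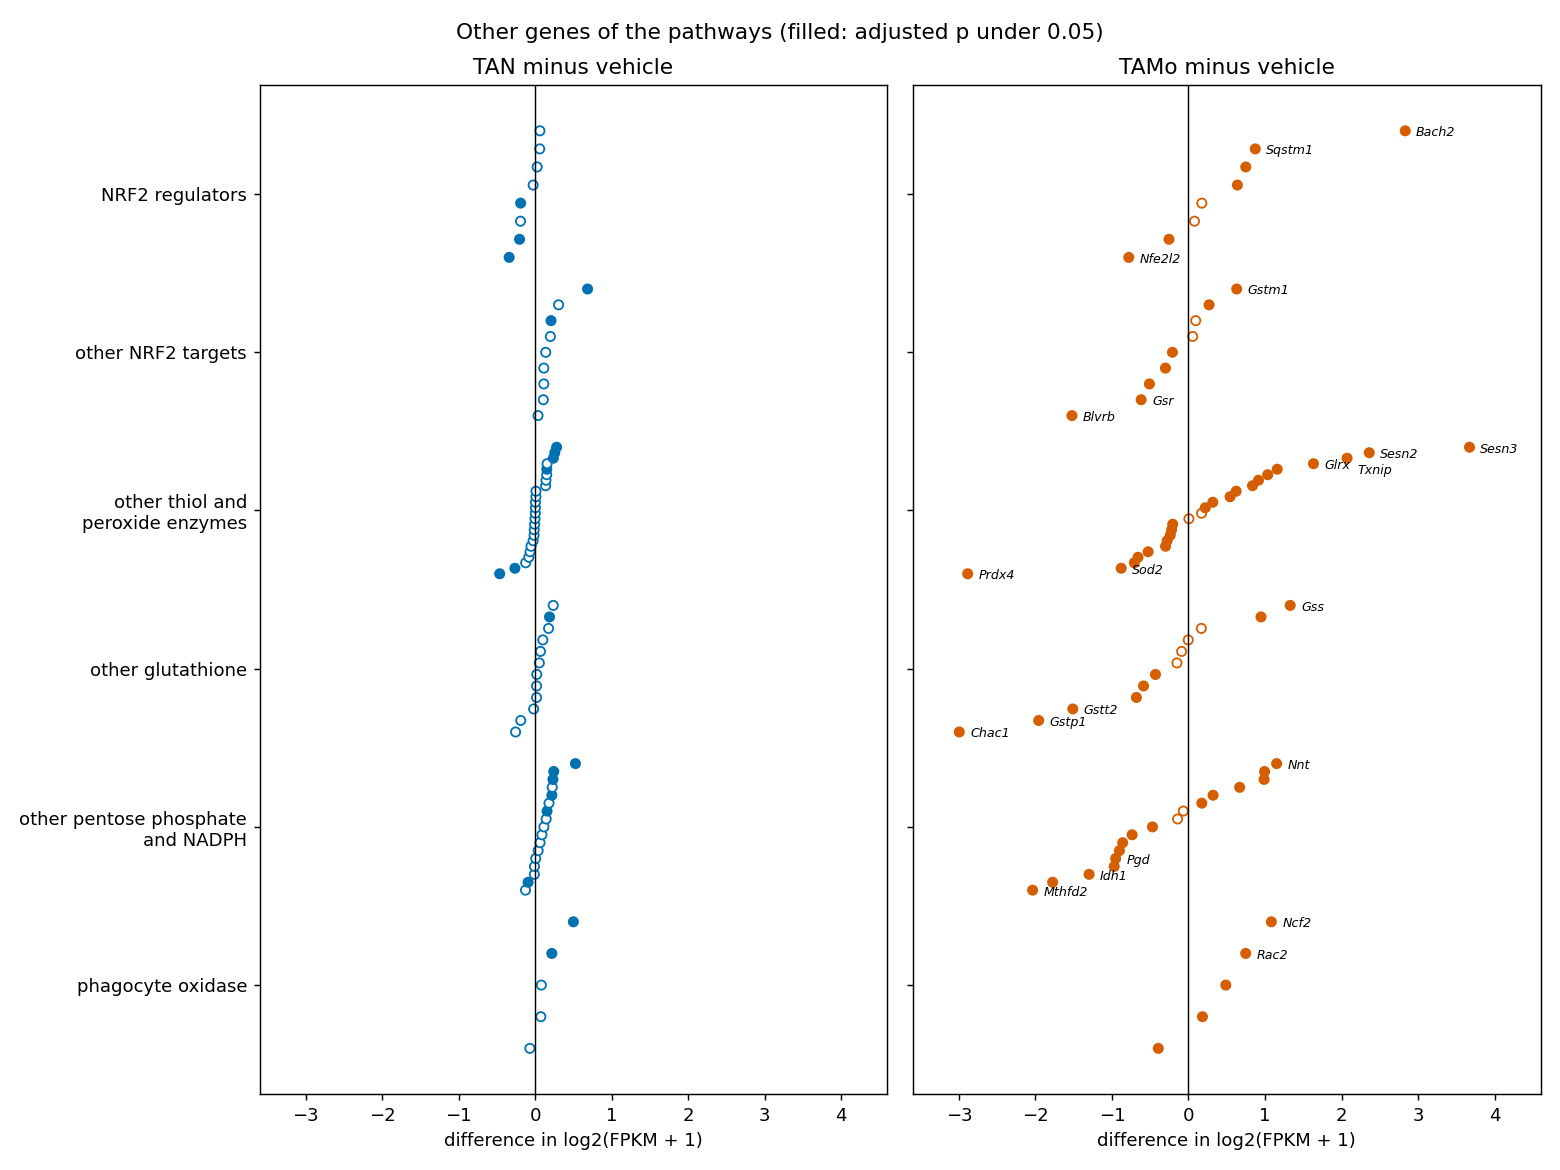
Difference from vehicle in log2(FPKM + 1) for the tested genes of the 6 lists, for TAN (left) and TAMo (right); each point is a gene, sorted within its list, and filled points had an adjusted p under 0.05. TAN points lie between -0.46 (Txnip) and 0.69 (Gstm1), and TAMo points between -2.99 (Chac1) and 3.67 (Sesn3).

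Over the 6 lists, 30 of 75 tested genes rose and 33 fell with TAMo, against 86.5% of all tested genes passing in either direction. With TAN 14 rose and 6 fell, against 20.3% of all tested genes. The median log2 change with TAMo was -0.0028 over these 75 genes and -0.95 over the 10 members. In the TAN comparison the calls of 5 of the 20 list genes, Gstm1, Txnip, Park7, Idh1 and Ncf1, held in all alternatives, and the other 15 were each lost without at least 1 library. With TAMo the calls of 53 of 63 list genes held in all alternatives.

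The genes whose pattern over the 6 libraries was nearest to that of Tkt were Ppa1, Exosc8 and Hat1, at Euclidean distances of 0.0587, 0.072 and 0.074 in log2(FPKM + 1) after the vehicle mean of each gene was subtracted. Ppa1 had a log2 change of 0.0048 with TAN and -2.14 with TAMo. Those nearest to Taldo1, the member with the largest difference between TAN and vehicle, were Msh6, Slc25a4 and Rnpep, at 0.0591, 0.0611 and 0.0703.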

How the data were processed

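RNA of OT-I cells was sequenced in 3 groups of 2 libraries. The authors deposited 1 table of FPKM, with a row per gene and a column per library. Tools and build named in the submitters' processing notes, without their roles, are CASAVA, featureCounts 1.5.0-p3, HISAT2 2.0.5 and mm10. Neither annotation nor strandedness nor gene lengths were stated.

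Genes reaching 1 FPKM in 2 or more libraries were fitted on log2(FPKM + 1) with limma 3.58.1 in R 4.3.3 (mean-variance trend, all 6 libraries, 3 residual and 4.07 prior degrees of freedom), two-sided, with Benjamini-Hochberg adjustment and a threshold of 0.05. The fit was run on simulated data with normal noise in which few genes changed, and only in the TAMo group. Changes in most genes, as called here with TAMo, and small changes like those with TAN were not simulated. Depth was read from the steps of nonzero low values (up to 40 reads) in 7708 genes with 1 transcript in GENCODE M21. The depth was chosen so that these values were whole reads, and 98.0% to 99.0% of the values were whole within 0.1 read. Promoter sequences are from RefSeq (GRCm38.p6), and gene coordinates from GENCODE M21 on GRCm38, the assembly of mm10. FPKM is relative to all counted reads, so a change in abundant transcripts moves the rest.

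The members, lists and tests were chosen with earlier results of these data known. All 10 members are named, and of each list first the called genes, up to 4, with the largest absolute log2 change, provided that the higher group averaged 5 FPKM or more. Keap1, Blvrb, Prdx2, Prdx3, Prdx5, Prdx6, Sod2, Pgd, Pgls, Rpia, Rpe and Me2 are further list genes, chosen after their values were seen.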

Additional observations from a re-analysis of the deposited data

How the results depend on the processing

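The alternatives were other pseudocounts (0.1 and 0.5), filters, scalings, no variance trend, a fit of 2 groups, a replicate block and each library left out, where the lone library of a group was taken to vary like the others. The number of members called higher with TAN against vehicle was 3. It was 1 with no variance trend, 2 with low values kept, and 4 with the replicate block or the fit of 2 groups. It also changed when single libraries were left out. No member was called lower in that comparison in any alternative. With libraries rescaled to one sum, 2 members rather than 1 were higher with TAMo than with vehicle, and 2 rather than 0 were lower with TAN than with TAMo. The 7 members that fell with TAMo did so in all alternatives.

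Signs turned only in members that did not pass in the fit of all 6 libraries with FPKM as deposited. With TAN against vehicle, Srxn1 was -0.0081 with quantile normalisation and ran from -0.032 to 0.038 over single libraries left out (below 0 for vehicle replicate 2, at -0.030, and TAN replicate 2), and Sod1 ran from -0.0033 (TAN replicate 1 left out) to 0.042. With TAMo against vehicle, Srxn1 was -0.0087 with median-ratio scaling and ran from -0.0045 (vehicle replicate 2 left out) to 0.062. Gclc in that comparison was 0.19 with libraries rescaled to one sum, where it passed (limma adjusted p = 0.0138). Over single libraries left out, Gclc ran from -0.049 to 0.045 (vehicle replicate 2 left out), with 0.0115 for TAMo replicate 1. For TAN minus TAMo, Txnrd1 was 0.019 and Srxn1 0.017 with median-ratio scaling, and Srxn1 ran from -0.061 to 0.0093 (TAN replicate 1 left out), with 0.00045 for TAMo replicate 2. The cause of these shifts was not tested. With a filter of 5 FPKM on the mean, Srxn1 was not among the genes tested.

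Of all genes, TAN libraries had 1005 rises and 1175 falls against vehicle. Keeping low values gave 644 and 687, and leaving out a TAN or vehicle library gave 325 to 390 and 367 to 451. Replicates that share a number deviated together only weakly (r = 0.0567, 0.0245 and 0.00782 across genes). These values cannot settle whether such replicates were paired by design. Beyond Prdx1 with TAN, the block changed no member's call. The depth of TAMo replicate 1 is uncertain by a factor of 2, and 1 read in a gene of 2 kb was worth 0.0110 to 0.0228 FPKM, which limits Srxn1 most. A read count model was not run, since FPKM steps depend on gene lengths that are not given.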
